A study of Mus musculus with 6 samples.

Results

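The 10 genes described here are Atf4 and 9 genes known as its targets or as readouts of the integrated stress response (Ddit3, Asns, Trib3, Chac1, Sesn2, Fgf21, Gdf15, Phgdh and Psat1). They were chosen by name as known genes of the pathway, with earlier results of these data known, and they are 10 of the 56305 genes counted in liver RNA-seq of 3 WT and 3 Vps15LKO mice. Vps15LKO mice are AlbCre+;Vps15 f/f animals, in which Cre under the albumin promoter deletes Vps15, the regulatory subunit of class 3 PI3K, in cells of the hepatocyte lineage. WT animals are the controls of this line, and whether they carry the floxed alleles is not given in the sources used here. All mice were males of 5 weeks, fed standard chow ad libitum, and their livers were taken at ZT6, that is, 6 h after lights on. Each liver gave 1 library, so n = 3 mice per genotype throughout. Which other cells of the liver keep Vps15 was not measured. Whole tissue was sequenced, so fewer cells of a type and less RNA per cell cannot be told apart.

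In the integrated stress response, kinases that sense amino acid lack, endoplasmic reticulum stress, viral RNA or haem deficiency phosphorylate the translation initiation factor eIF2α. General translation slows, while the Atf4 mRNA, which carries short upstream reading frames, is translated more. ATF4 protein then binds DNA with partners of the C/EBP family and induces genes for amino acid uptake and synthesis, for redox balance and for feedback. In liver the response is also known for the hormones FGF21 and GDF15. Because ATF4 is largely controlled at translation, its mRNA level is not a measure of its protein, and no protein was measured here.

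ATF4 and C/EBP proteins bind a composite element whose letters are TGATGNAA. Searched on both strands from 250 bases before to 50 after each RefSeq start site (GRCm38.p6), this element was found in 4 of the 10 genes, which have 12 such windows between them, and in 4.51% of all 27025 genes with a window. The 4 sites are shown because they hold the letters that ATF4 and its partners bind. Each is given 5′ to 3′ on the strand that reads TGATGNAA, with the element in capitals.

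Asns, chr6:7693214-7693243, minus strand: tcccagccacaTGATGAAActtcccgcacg

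Fgf21, chr7:45615611-45615640, plus strand: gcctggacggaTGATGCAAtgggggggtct

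Chac1, chr2:119351038-119351067, minus strand: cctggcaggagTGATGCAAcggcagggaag

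Trib3, chr2:152344028-152344057, plus strand: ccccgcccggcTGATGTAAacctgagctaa

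The element began 23 bases before the RefSeq start site in Asns, 139 before it in Fgf21, 193 before it in Chac1 and 14 after it in Trib3. By the GENCODE M21 models, the Asns element lies inside the first exon and the other 3 lie outside any exon of their gene. Of these 4 genes, Asns and Fgf21 were called higher in Vps15LKO livers, while Chac1 and Trib3 were not called. The other 6 genes, Psat1 and Phgdh with the largest fold changes among them, had no match, which says only that these letters are not in these windows. An E-box, CACGTG, the letters to which Bmal1 and Clock bind, was found in Fgf21 (50 bases before the start) and at a second start of Gdf15 (83 bases before it), and in 8.09% of all genes. The core of the antioxidant response element, TGACNNNGC, was found in Asns, Sesn2 and Phgdh and in 14.0% of all genes. The 250 bases before the Fgf21 start are shown because they hold both the composite element, here read from its other strand, and the E-box, each in capitals.

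Fgf21, chr7:45615491-45615740, minus strand: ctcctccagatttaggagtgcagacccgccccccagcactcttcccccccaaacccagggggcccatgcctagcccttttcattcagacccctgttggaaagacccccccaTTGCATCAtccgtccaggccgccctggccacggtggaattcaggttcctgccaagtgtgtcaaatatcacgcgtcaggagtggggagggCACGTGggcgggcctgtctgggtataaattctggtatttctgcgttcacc

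**Figure D1:**
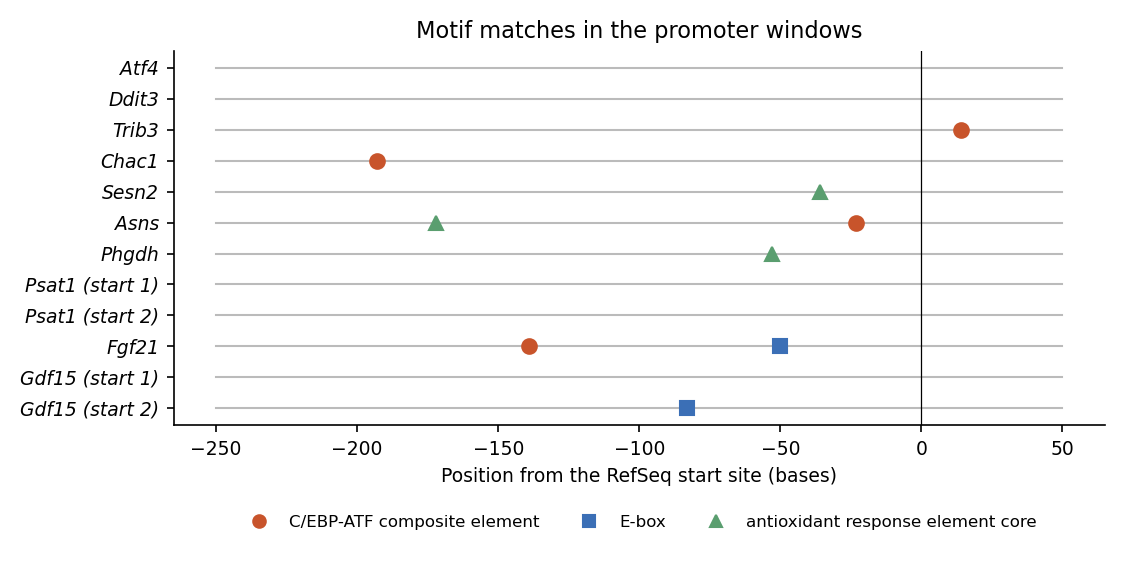
Matches to 3 motifs in the RefSeq promoter windows of the 10 genes (12 windows, grey lines), placed by the distance in bases of their first base from the start site (vertical line). The composite element (circles) is seen in Trib3, Chac1, Asns and Fgf21, and the E-box (squares) in Fgf21 and Gdf15. The antioxidant response element core is drawn as triangles.

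Reads on genes lay between 16137093 and 18110223 per library. DESeq2 size factors were 0.742 to 0.801 in WT and 1.23 to 1.41 in Vps15LKO livers, so that 1 read counts for more in WT, and the choice of scaling moves every fold change. Scaling all libraries to the same total of reads raised the median log2 fold change from −0.02 to 0.70 over the 15430 genes tested. WT replicate 3 differed from the other WT livers (chi-square per gene of 30.2 and 34.7, against 15.0 between WT replicates 1 and 2). Among Vps15LKO livers, replicates 2 and 3 differed most (36.4, against 14.0 and 14.7 for the other pairs). Pik3r4, which encodes Vps15, had 508, 573 and 460 normalized counts in WT mice and 341, 362 and 355 in Vps15LKO mice, a log2 fold change of −0.54 ± 0.11 (SE, adjusted p = 0.0021, limma with Benjamini-Hochberg adjustment) that was 0.19 and not called with the same total of reads. Whole-gene counts do not separate the deleted part of Pik3r4 from the rest. The 10 hepatocyte markers had summed normalized counts of 2908930 to 3290907 in WT and 841320 to 1274468 in Vps15LKO livers, 71.7% of it from Alb, and 9 of them were called lower (6 with quantile normalization).

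All 10 genes passed the filter of at least 20 normalized counts in at least 3 livers. In Vps15LKO livers 7 of them were called higher and 0 lower by limma (at least 1.2-fold with an adjusted p below 0.05), while 33.5% of all tested genes were called higher and 33.0% lower, 66.5% in all. The 7 genes were Psat1, Phgdh, Fgf21, Asns, Gdf15, Ddit3 and Sesn2. Atf4, Trib3 and Chac1 were not called. The median log2 fold change of the 10 genes was 1.25, against −0.02 over all genes. In the same 7 genes every Vps15LKO liver lay above every WT liver, and 73.2% of all tested genes had such a gap in 1 direction or the other. With the same total of reads, all 10 genes were called higher, against 66.8% of all tested genes. Phgdh passed the filter only through its Vps15LKO level. A filter of at least 20 in every liver drops Phgdh, Psat1 and Fgf21 for their low WT levels. Of the 7 genes left 4 were then called higher, beside 3650 of all 13101 genes tested. With 3 livers against 3, no exact permutation p of a single gene can go below 0.1, so the p-values given here come from limma, adjusted by Benjamini-Hochberg over the tested genes. Fold changes are on the scale of log2(normalized count + 1), which understates those of low genes.

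**Figure D2:**
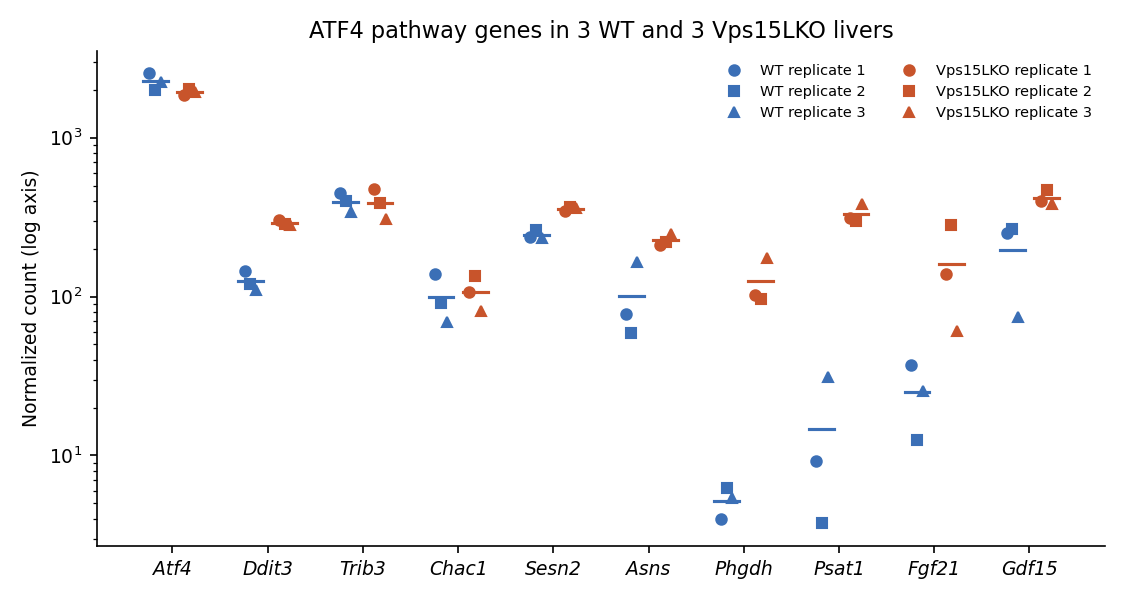
Normalized counts (log axis) of the 10 genes in each of the 3 WT (blue) and 3 Vps15LKO (orange) livers, with the symbol giving the replicate and the bar the group mean. Phgdh and Psat1 lie furthest apart between genotypes, Atf4, Trib3 and Chac1 overlap, and WT replicate 3 is the highest WT liver for Asns and Psat1 and the lowest for Gdf15.

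Atf4 itself (ENSMUSG00000042406, chromosome 15, 80255184 to 80257541, plus strand) encodes the central transcription factor of the response. It had 2547, 2000 and 2234 normalized counts in WT mice and 1868, 2027 and 1951 in Vps15LKO mice. The groups overlapped, with Vps15LKO replicate 2 just above WT replicate 2. Its log2 fold change was −0.21 ± 0.11 (SE, adjusted p = 0.12 in limma), and it changed sign to 0.23 with quantile normalization (not called) and to 0.52 with the same total of reads (called higher, adjusted p = 0.00138 in limma). The direction of the Atf4 transcript thus depends on the scaling.

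Ddit3 (ENSMUSG00000025408, chromosome 10, 127290774 to 127296288, plus strand) encodes CHOP, a C/EBP-family factor downstream of ATF4 that is known for its role in stress-induced cell death. Its normalized counts were 145, 120 and 111 in WT and 304, 284 and 282 in Vps15LKO livers, so that every Vps15LKO liver lay well above every WT liver. This was a ratio of 2.32 and a log2 fold change of 1.22 ± 0.13 (SE, adjusted p = 6.6e-05 in limma). With each of the 6 livers left out in turn it stayed between 1.13 and 1.33. A second Ensembl entry of the Ddit3 symbol (ENSMUSG00000116429), for an upstream reading frame of the same transcript, has all of its 105 exonic bases within the first. It was lower in reads, with 10, 26 and 16 in WT and 48, 57 and 50 in Vps15LKO livers, a log2 fold change of 0.86 (adjusted p = 0.0449 in limma) that was 0.07 and not called with quantile normalization. How reads were shared between both entries is not given in the sources used here. The first entry also shares 68 exonic bases with Mars and 13 with Gm4189, which run in the opposite direction, and whether the counting used strand is not given either.

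Trib3 (ENSMUSG00000032715, chromosome 2, 152337422 to 152344032, minus strand) encodes a pseudokinase that is induced by ATF4 and CHOP and acts back on them. It had 448, 398 and 340 normalized counts in WT mice and 477, 388 and 306 in Vps15LKO mice. The 2 genotypes covered nearly the same range. For Trib3 the log2 fold change was −0.03 ± 0.17 (SE, adjusted p = 0.881 in limma), 0.0094 with TMM and 0.69, called higher, with the same total of reads. Chac1 (ENSMUSG00000027313, chromosome 2, 119351229 to 119354381, plus strand) encodes a glutathione-degrading enzyme of the PERK, ATF4 and CHOP branch. Its normalized counts were 138, 91.2 and 68.7 in WT and 106, 135 and 80.6 in Vps15LKO livers, with the highest value in a WT liver. The groups overlapped, and the log2 fold change was 0.14 ± 0.28 (SE, adjusted p = 0.678 in limma), −0.31 with quantile normalization and 0.86, called higher, with the same total of reads. Sesn2 (ENSMUSG00000028893, chromosome 4, 132492032 to 132510501, minus strand) encodes a leucine sensor that restrains mTORC1. It had 236, 264 and 235 normalized counts in WT mice and 344, 364 and 362 in Vps15LKO mice, with no overlap and little spread within either group. The log2 fold change of Sesn2 was 0.54 ± 0.10 (SE, adjusted p = 0.0013 in limma), a ratio of 1.46 and the smallest of the 7 called.

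Asns (ENSMUSG00000029752, chromosome 6, 7675169 to 7693254, minus strand) encodes asparagine synthetase, a classical amino acid response gene. Its normalized counts were 78.2, 58.7 and 166 in WT and 212, 222 and 248 in Vps15LKO livers. WT replicate 3 stood well above the other WT livers but stayed under all Vps15LKO livers. The log2 fold change was 1.30 ± 0.33 (SE, adjusted p = 0.00716 in limma), a ratio of 2.47, and it ran from 0.99 to 1.73 with each liver left out in turn.

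Phgdh (ENSMUSG00000053398, chromosome 3, 98313170 to 98339990, minus strand) encodes the first enzyme of serine synthesis from glycolytic 3-phosphoglycerate. It had 3, 5 and 4 reads in WT and 134, 119 and 248 in Vps15LKO livers, that is, 3.98, 6.25 and 5.39 against 102, 96.4 and 175 normalized counts. All WT livers were near the limit of detection, and the log2 fold change was 4.30 ± 0.30 (SE, adjusted p = 7.8e-06 in limma), a ratio of 19.7. Psat1 (ENSMUSG00000024640, chromosome 19, 15904678 to 15947337, minus strand) encodes the aminotransferase of the next step. Its reads were 7, 3 and 23 in WT and 410, 368 and 542 in Vps15LKO livers, or 9.28, 3.75 and 31.0 against 313, 298 and 383 normalized counts. WT replicate 3 was again the highest WT liver, and every Vps15LKO liver was far above it. The log2 fold change of Psat1 was 4.83 ± 0.58 (SE, adjusted p = 0.000115 in limma), a ratio of 28.5 and the largest of the 10. It was 4.19 without WT replicate 2 and 5.56 without WT replicate 3, and called in both. The WT levels of both genes are low, so the size of their ratios rests on few reads and on the pseudocount. Psph, whose product completes serine synthesis, was not called (called higher at 0.77 with the same total of reads, −0.13 and not called with quantile normalization), with 225 ± 6.23 normalized counts in WT mice and 234 ± 33.4 in Vps15LKO mice (SD, n = 3).

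Fgf21 (ENSMUSG00000030827, chromosome 7, 45613886 to 45615490, minus strand) encodes a hormone that the liver secretes in fasting and in amino acid restriction. Its normalized counts were 37.1, 12.5 and 25.6 in WT and 139, 283 and 60.8 in Vps15LKO livers. No Vps15LKO liver fell into the WT range, but the Vps15LKO livers spread widely. The ratio was 5.64 and the log2 fold change 2.50 ± 0.56 (SE, adjusted p = 0.00377 in limma), and leaving out single livers moved it from 1.96 to 3.06. PPARα also drives Fgf21, and of 14 known PPARα targets 11 were called lower and 2 higher (8 lower and 2 higher with the same total of reads). The fatty acid hydroxylase genes Cyp4a14 and Cyp4a10 had the largest falls, with log2 fold changes of −3.95 and −3.54, and Cyp4a14 was at −4.70 without Vps15LKO replicate 2 and −3.25 without replicate 3. Pdk4, which encodes a kinase that limits pyruvate oxidation, rose with 2.52.

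Gdf15 (ENSMUSG00000038508, chromosome 8, 70629393 to 70632456, minus strand) encodes a stress hormone that acts through the hindbrain receptor GFRAL. It had 251, 265 and 74.1 normalized counts in WT mice and 397, 466 and 385 in Vps15LKO mice. The groups did not overlap, and WT replicate 3 lay far under the other 2 WT livers. The fitted ratio was 2.43, a log2 fold change of 1.28 ± 0.42 (SE, adjusted p = 0.0256 in limma), which fell to 0.68 without WT replicate 3 and was still called. Without Vps15LKO replicate 1, 2 or 3 it was 1.31, 1.19 and 1.33 and no longer called. Of the 7 called genes, Gdf15 had the highest adjusted p. Gdf15 and Sesn2 are also known p53 targets, and of 12 other p53 targets 10 were called higher and 0 lower (10 and 1 with quantile normalization), 2 of them past the filter only through their Vps15LKO levels. They were led by Cdkn1a, which encodes the cell cycle inhibitor p21, at 4.30 and Phlda3 at 3.92 on the log2 scale. Sesn2 is a target of Nrf2 as well, and of 10 Nrf2 targets 8 were called higher and 0 lower, led by Gsta1 at 6.16 (6.87 without WT replicate 1 and 5.47 without WT replicate 3) and Srxn1 at 4.41. The part of p53, Nrf2 or PPARα in the levels of these genes was not tested.

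**Figure D3:**
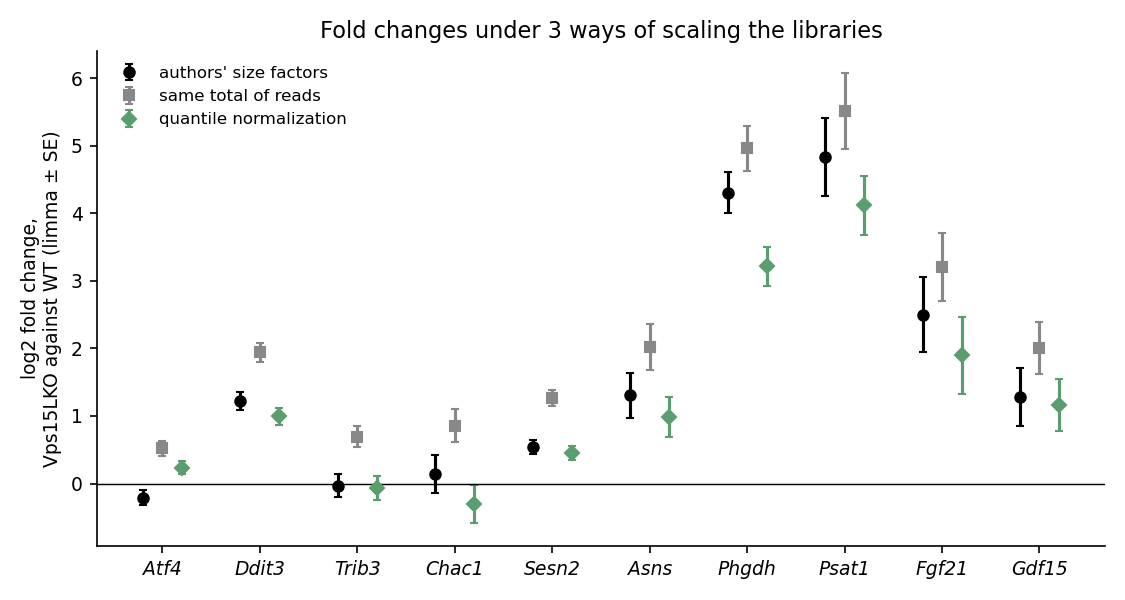
log2 fold change (limma estimate ± SE, Vps15LKO against WT, n = 3 livers each) of the 10 genes with the authors' size factors (black), the same total of reads (grey) and quantile normalization (green). Psat1, Phgdh, Fgf21, Asns, Gdf15, Ddit3 and Sesn2 stay above 0 in all 3, while Atf4 changes sign from −0.21 to 0.52 and 0.23, Chac1 from 0.14 to −0.31 with quantile normalization, and Trib3 from −0.03 to 0.69 with the same total of reads.

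The fold changes were also ranked among those of all tested genes. TMM and total-read scaling add about the same amount to every gene and can hardly move a rank, so the ranges given here come mainly from quantile normalization. Psat1 had a higher fold change than 99.0% to 99.1% of all genes over the scalings tried, and Phgdh than 97.8% to 98.4%. Fgf21 stood at 91.9% to 92.7%, Gdf15 at 82.2% to 84.3%, Asns at 82.2% to 82.6%, Ddit3 at 81.5% to 82.3% and Sesn2 at 70.6% to 71.8%. Trib3 lay near the middle of all genes, at 49.4% to 52.1%. Chac1 ranged from 40.2% to 57.3% and Atf4 from 40.6% to 64.9%, which spans the middle.

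Per length, in TPM (reads divided by exonic length and scaled to the same sum in every library), Atf4 was the most abundant in both genotypes. Its TPM was 95.0 ± 7.89 in WT livers and 139.9 ± 8.07 in Vps15LKO livers (SD, n = 3). TPM does not use the size factors, so these levels compare with the fold changes at the same total of reads. In WT livers Trib3 (18.4), Gdf15 (10.5), Ddit3 (7.23), Sesn2 (7.01), Chac1 (5.97), Asns (3.70), Fgf21 (2.59), Psat1 (0.347) and Phgdh (0.210) followed in TPM. The order was clear between Atf4 and Trib3, between Trib3 and Gdf15 and between Fgf21 and Psat1, while the values of other neighbours overlapped between livers. In Vps15LKO livers the order was Atf4, Gdf15 (37.9), Trib3 (31.0), Ddit3 (28.7), Fgf21 (27.9), Sesn2 (17.4), Asns (14.1), Psat1 (13.3), Chac1 (11) and Phgdh (8.61). Here Atf4 stood clear of Gdf15, and Sesn2 of Asns, while the other neighbours overlapped. Phgdh thus had the lowest mean TPM of the 10 genes in both genotypes.

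The genes most like Atf4 and those most like Ddit3 were found among all tested genes outside the 10. The 5 genes whose profile over the 6 livers was nearest to that of Atf4, by the root mean square difference of centred log2 values, were Dynlrb1 (0.018), Eif3g (0.029), Trappc5 (0.029), Nr1h2 (0.038) and Ssr2 (0.038). For Ddit3 they were Bin1 (0.036), Tstd1 (0.050), Gss (0.050), 1110038B12Rik (0.066) and A930001C03Rik (0.073). The distances are in log2 units over 6 livers.

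Upstream of ATF4, the 17 genes for the eIF2α kinases, the eIF2B subunits and the phosphatase subunits and other regulators had a median log2 fold change of −0.28. Of these, 3 were called higher and 8 lower, which turned to 12 higher and 1 lower with the same total of reads. Eif2ak3, which encodes the endoplasmic reticulum kinase PERK, had 449 ± 24.4 normalized counts in WT mice and 712 ± 26.9 in Vps15LKO mice (SD, n = 3), a log2 fold change of 0.66. Impact, an inhibitor of the amino acid sensing kinase GCN2, rose by 1.5, and Ppp1r15a, the stress-induced eIF2α phosphatase subunit GADD34, by 0.47. All 3 stayed higher with quantile normalization and with the same total of reads. Eif2ak4, which encodes GCN2, was not called at 0.34 (adjusted p = 0.0574 in limma) but was called with TMM, at 0.38, and with the same total of reads, at 1.06. Eif2ak1, the haem-regulated kinase, was lower at −0.59, while with the same total of reads it was 0.13 and not called. The constitutive phosphatase subunit Ppp1r15b was lower at −0.86, and at −0.13 not called with the same total of reads. Dnajc3, an inhibitor of PERK, was lower under every scaling, at −1.28, −0.79 with quantile normalization and −0.55 with the same total of reads.

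Among 8 factors that act with ATF4, 4 were called higher and 3 lower, 5 and 1 with the same total of reads, and 4 and 1 with quantile normalization. Nupr1, a stress-induced cofactor, rose from 26.9 ± 3.78 to 1522 ± 180 normalized counts (SD, n = 3), a log2 fold change of 5.77 ± 0.14 (SE). Atf3, a known ATF4 target, rose from 27.1 ± 11 to 435.8 ± 2.90, a log2 fold change of 4.02 ± 0.24 (SE). Jdp2 rose by 2.24 and Jun by 1.75. Cebpa, the hepatocyte C/EBP factor, fell by 1.94 on the log2 scale and also fell under quantile normalization and the same total of reads. Cebpb at −0.72 and Atf5 at −0.88 were called lower with the authors' size factors and not called under those other scalings. Cebpg, a common partner of ATF4, was not called at −0.26 and was called higher at 0.47 with the same total of reads.

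Of 10 further genes of amino acid and one-carbon synthesis, 5 were called higher and 4 lower (7 and 3 with the same total of reads), with a median of 0.98. Those higher were the mitochondrial one-carbon genes Aldh1l2 (3.40) and Mthfd2 (1.91), the proline synthesis genes Pycr1 (3.25) and Aldh18a1 (2.72), and Pck2 (2.65), the mitochondrial phosphoenolpyruvate carboxykinase. Their WT means were low, between 4.32 and 52.2 normalized counts, like those of Phgdh and Psat1. Those lower were Cth (−1.91), Got1 (−1.28), Shmt2 (−1.18) and Gpt2 (−0.36), with WT means between 2844 and 6750 normalized counts. Gpt2 turned to 0.37 with the same total of reads and to 0.43 with quantile normalization, both called higher.

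Genes for amino acid transport were mostly higher. Of the 8 tested, 7 were called higher and 1 lower (7 and 0 with the same total of reads, 6 and 1 with quantile normalization), with a median of 1.94. Slc7a11, the cystine importer, had 0 reads in all WT livers and a level of 1857 ± 392 in the Vps15LKO livers (SD, n = 3, normalized counts), which was at least 473-fold higher than a floor of 3 reads per WT library. Slc1a4, a carrier of serine and alanine, rose from 102 ± 13.3 to 1795 ± 130.0 normalized counts, a log2 fold change of 4.13 ± 0.12 (SE). Slc7a1 rose by 3.46, Slc1a5 by 2.29 and Slc3a2, the shared heavy chain, by 1.59. Slc6a9 (0.56) and Slc7a5 (0.43) moved less, and Slc7a5 was not called with quantile normalization. Slc38a2 was lower at −0.92, and not called at −0.20 with the same total of reads. Slc7a3 was too low to be tested.

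Of 12 other known targets of ATF4 or CHOP, 7 were called higher and 3 lower (9 and 2 with the same total of reads), with a median of 0.94. Tnfrsf10b, the death receptor DR5 and a CHOP target, rose from 5.70 ± 4.77 to 175 ± 5.99 normalized counts (SD, n = 3), a log2 fold change of 5.01 (4.39 without WT replicate 1). Stc2 rose by 2.93, Fam129a by 2.35, the proapoptotic gene Bcl2l11 by 1.92, the mTORC1 inhibitor gene Ddit4 by 1.87, Vldlr by 1.25 and Gadd45a by 0.63, of which Vldlr and Gadd45a were not called with quantile normalization. Herpud1, a gene of endoplasmic reticulum associated degradation, was lower at −2.12, Vegfa at −1.02 and Xpot at −0.76, with Xpot at −0.03 and not called with the same total of reads. Bbc3 (0.38) and Ero1l (0.07) were not called.

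**Figure D4:**
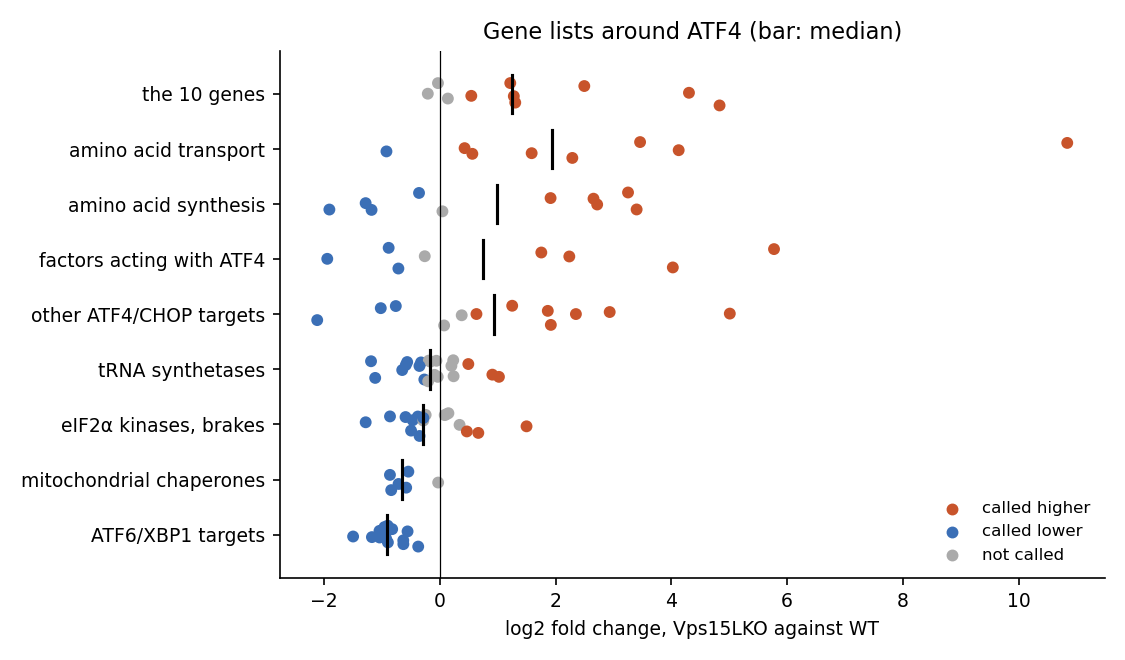
log2 fold change (Vps15LKO against WT) of every tested gene of the 10 genes and 8 lists around ATF4, with points coloured by call and the black bar at the median of each list. Amino acid transporters have the highest median (1.94), which includes Slc7a11 at the far right, whose position depends on the pseudocount, and ATF6/XBP1 targets the lowest (−0.92). With the same total of reads the medians of the kinase, tRNA synthetase and mitochondrial chaperone lists lie above 0.

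The 10 genes and the 4 lists of factors, synthesis, transport and other targets hold 48 tested genes. Of these, 30 (62.5%) were called higher and 11 (22.9%) lower, beside 33.5% and 33.0% of all tested genes. The 20 cytosolic tRNA synthetase genes, a class that holds many ATF4 targets, are not among the 48. Of them 3 were called higher and 8 lower (15 and 2 with the same total of reads). With the same total of reads 38 of the 48 were higher and 6 lower, beside 10300 (66.8%) higher and 1712 lower of all 15430 tested genes. With quantile normalization 28 of the 48 were higher and 8 lower, beside 4692 and 5801 of all tested genes. Of the 48, 7 (Phgdh, Aldh1l2, Pycr1, Slc7a1, Slc7a11, Stc2 and Tnfrsf10b) reached the filter only through their Vps15LKO levels and so could hardly come out otherwise than higher, which holds for 1029 of the 15430 genes tested. The counts of the lists that hold these genes are therefore given as a description. Several of the 48 genes that are abundant in WT liver, such as Cth, Shmt2 and Herpud1, were lower. Several that are scarce there, such as Psat1, Nupr1 and Atf3, were higher. Both held under all 3 scalings compared here. With all tested genes divided into 3 equal classes by their mean over the 6 livers, calls also differed by level over all genes, with 45.7% higher and 17.3% lower in the lowest class and 21.6% and 50.9% in the highest. With quantile normalization this was not seen over all genes (1539 higher and 1950 lower in the lowest class, 1655 and 1897 in the highest). The 48 genes then had 10 higher and 0 lower in the lowest class and 7 and 8 in the highest. The difference between the 48 genes and all others was not tested, and the filter set the direction of the 7 genes named before.

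**Figure D5:**
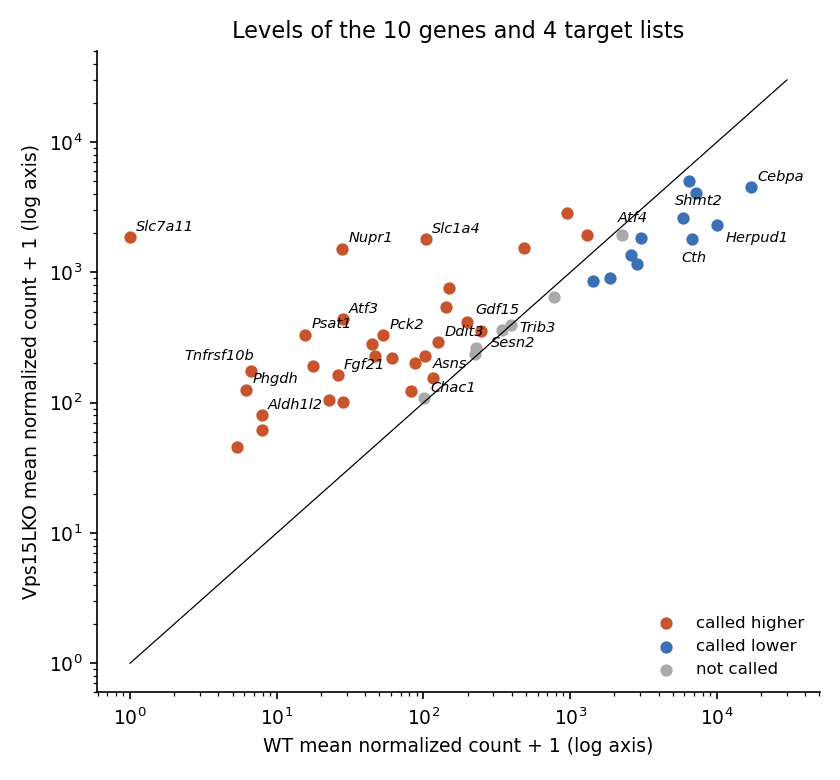
Mean normalized count + 1 in WT (x) and Vps15LKO livers (y), both on log axes, with the line of equal levels. Shown are the 48 tested genes of the 10 genes and the lists of factors, synthesis, transport and other targets, coloured by call. Genes called higher have WT means of up to 1292 (Slc6a9) and genes called lower of at least 1437 (Xpot). With the same total of reads 38 were called higher and 6 lower.

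Relatives of the 10 genes moved in different directions. Trib2 was higher, with a log2 fold change of 1.81, while Trib1 was lower at −0.65 (0.08 and not called with the same total of reads) and Trib3 was not called. Sesn1 (−0.04) and Sesn3 (−0.09) were not called where Sesn2 was higher, and with the same total of reads both were called higher, at 0.69 and 0.63. Chac2, which encodes the constitutive relative of CHAC1, fell by 1.53 and stayed lower at −0.80 with the same total of reads. Differences between paralogues were not tested. For the hormones, Klb, the coreceptor of FGF21, was lower at −1.73 (−1.0 with the same total of reads) and Fgfr1 higher at 2.19, while Fgfr4 was lower at −0.81 and not called at −0.08 with the same total of reads. Gfral, the GDF15 receptor of the hindbrain, had 0 reads in all 6 livers.

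All 15 targets of ATF6 and XBP1, the other arms of the unfolded protein response, were called lower, with a median of −0.92, but only 9 with quantile normalization, and 3 with the same total of reads, where 1 was higher. Hyou1 was lower at −1.5 and Hsp90b1 at −1.17 (−0.20 and not called with quantile normalization), both chaperones of the endoplasmic reticulum. Of 6 mitochondrial chaperone and protease genes, 5 were lower (0 lower and 1 higher with the same total of reads, 3 and 2 with quantile normalization). The 5 included Hspd1 at −0.84 (−0.22 and not called with quantile normalization) and Dnaja3 at −0.86. Of 20 cytosolic tRNA synthetase genes, a class that holds many ATF4 targets, 3 were higher and 8 lower (15 and 2 with the same total of reads, 6 and 6 with quantile normalization). Gars at 1.02 and Vars at 0.91 rose most, and Tars at −1.19 and Aars at −1.12 fell most.

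The genotypes also differed in markers of the cells present. Of the markers tested, 2 of macrophages, 2 of cholangiocytes and 4 of lymphocytes, Gpnmb, Trem2, Cldn4, Cftr, Cd8a and Nkg7 among them, reached the filter only through their Vps15LKO levels, so that their direction was largely set by the filter. The summed levels do not depend on it. Of 12 macrophage markers 11 were called higher, with summed normalized counts of 7164 to 8600 in WT and 28643 to 31617 in Vps15LKO livers, and Gpnmb and Trem2 rose most (8.88 and 5.67 on the log2 scale, with Gpnmb at 8.21 without WT replicate 1 and 9.47 without WT replicate 2). All 10 stellate cell markers were higher (7095 to 7597 against 30561 to 36135), with Col1a1 at 4.39 and Col3a1 at 3.58. All 8 cholangiocyte markers were higher (711 to 840 against 12250 to 23387), with Cftr at 5.66. Cldn4, with 0, 1 and 3 reads in WT livers, was at least 147-fold higher than a floor of 3 reads per WT library. Spp1, which macrophages also make, held 85.8% of the summed cholangiocyte level. Without it the sums were 212 to 241 against 1848 to 2891, a check added after the data were seen. Of 6 tested lymphocyte markers 5 were higher (106 to 140 against 308 to 359), or 3 higher and 1 lower with quantile normalization, with Cd8a at 3.82 and Nkg7 at 2.05. Of 8 endothelial markers 3 were higher and 5 lower (4 and 0 with the same total of reads, 3 and 3 with quantile normalization), with Lyve1 at 0.95, Pecam1 at 0.45, Oit3 at −1.02 and Kdr at −0.92. Of the hepatocyte markers, Serpina1a (−3.07) and Tat (−2.65) fell most. All 10 proliferation genes were higher, with Ccnb1 at 5.24 (4.06 without WT replicate 2 and 6.26 without WT replicate 3) and Mki67 at 4.20 (4.82 without WT replicate 3). The cell type in which Psat1, Phgdh, Asns, Ddit3, Sesn2, Fgf21 and Gdf15 were transcribed was not measured, and the part of these cells in their levels was not tested.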

How the data were processed

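Per the labels and the methods, poly(A)-selected, strand-marked libraries from 3 WT and 3 Vps15LKO livers were sequenced on DNBSEQ. The authors cleaned the reads with SOAPnuke, aligned to GRCm38 by HISAT2, obtained gene counts from featureCounts and scaled these by DESeq2. Versions and the strand and multi-mapping settings are not given in the sources used here. The deposited values are a signal: each library's gene counts over its own size factor, for 56305 genes. All values (100% in each library, within a tolerance of 0.1 reads) were whole multiples of 1 read, so whole reads were recovered for count tests. Depth was 16137093 to 18110223 reads per library.

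The 15430 genes that reached 20 normalized counts in 3 or more of the 6 livers entered limma 3.58.1 (lmFit, then eBayes with trend, R 4.3.3) on log2(normalized count + 1). P-values were adjusted by Benjamini-Hochberg across these genes, and a call needed both an adjusted p below 0.05 and a change of 1.2-fold or more. On simulated counts (14279 genes tested), 84 of 88 genes changed by 1 on the log2 scale and 84 of 84 changed by 2 were recovered, with 6 false calls. These counts were drawn from the WT means with a common spread for all genes, known size factors and few changed genes. The simulation therefore checks the procedure and gives no error rate for the real calls. Replicate numbers were not used as a block in the main comparison. Alternatives were pseudocounts of 0.1 and 10, other filters, TMM, total-read and quantile scaling, edgeR 4.0.16, DESeq2 1.42.0, limma voom, a replicate block and each liver left out.

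The 10 genes and all lists were chosen with earlier results of these data known. Named were the 10 genes, Pik3r4, any gene of the 7 lists of the pathway, its relatives and the receptors, at most 2 rises and 2 falls of largest size from every other list, and the 5 genes nearest to Atf4 and to Ddit3. Positions and lengths came from GENCODE M21, which matched 55141 genes, and sequences from RefSeq (GRCm38.p6), with windows for all 10 genes. A group with at most 3 reads in each liver was taken as at the floor. The replicates are separate mice, and their spread includes counting error. Tables and plots were made with Python 3.11.15, numpy 2.4.6, pandas 2.3.3 and matplotlib 3.10.9.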

Additional observations from a re-analysis of the deposited data

How the results depend on the processing

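The 7 genes called higher stayed above 0 under every alternative tried. They kept their calls wherever they were tested, except that Gdf15 lost its call without any 1 of the Vps15LKO livers (1.19 to 1.33, and 0.68 to 1.60 over all livers left out). Of the fold changes of the 10 genes under alternatives, 154 kept direction and call, 9 reversed, 1 gained and 3 lost the call. With the same total of reads, 10300 genes were higher and 1712 lower (edgeR 5170 and 5150, DESeq2 5024 and 5004). Atf4 was then 0.52, Trib3 0.69, Chac1 0.86, Pik3r4 0.19, Eif2ak1 0.13, Gcn1l1 0.48, Dele1 0.38, Oma1 0.26, Eif2b1 0.35, Eif2b3 0.44, Eif2b4 0.23, Eif2b5 0.44, Cebpb 0.011, Cebpg 0.47, Gpt2 0.37, Trib1 0.079, Sesn1 0.69 and Sesn3 0.63. With quantile normalization Atf4 was 0.23, Chac1 −0.31, Psph −0.13, Gpt2 0.43 and Sesn3 0.019, and with TMM Trib3 was 0.0094 and Sesn1 0.0061. Total-read scaling adds about the same amount to every gene by construction, and for the other scalings the cause was not tested. List counts moved with the same total of reads to 12 higher and 1 lower (kinases), 1 lower (factors), 0 lower (transport), 3 higher and 1 lower (paralogues), 3 higher and 1 lower (receptors), 15 higher and 2 lower (tRNA synthetases), 1 higher and 3 lower (ATF6/XBP1), 1 higher and 0 lower (mitochondrial chaperones) and 0 lower (endothelial). With quantile normalization they were 1 lower (factors), 1 lower (paralogues), 2 higher (receptors), 6 higher (tRNA synthetases), 9 lower (ATF6/XBP1), 2 higher and 3 lower (mitochondrial chaperones), 1 lower (p53), 3 lower (endothelial), and 3 higher and 1 lower (lymphocyte). With TMM they were 5 higher (tRNA synthetases) and 3 lower (endothelial). At least 20 in every liver left fewer genes to test (13101, of which 3650 were higher). Higher then were 4 of the 10 genes, 2 factors, 2 synthesis genes, 4 cholangiocyte, 1 lymphocyte and 6 proliferation genes. Without a filter 1 PPARα target was higher. With single livers left out, Trib3 ran from −0.19 to 0.13 and Chac1 from −0.094 to 0.40, the higher tRNA synthetases from 3 to 6, the lower endothelial genes from 3 to 5, the lower p53 targets from 0 to 1 and the higher PPARα targets from 1 to 2. Signs also changed there for Psph (−0.035 to 0.17), Ero1l (−0.017 to 0.13), Bbc3 (−0.16 to 0.69), Sesn1 (−0.088 to 0.052) and Fgfr3 (−0.15 to 0.12), none of them called in the full comparison.

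Deviations of same-numbered livers from their group means were hardly correlated (−0.01 to 0.05). With 3 livers per group this cannot exclude a shared litter or day, and no source ties a number to a litter. Whether the numbers pair the livers is thus not known. With a replicate block, 5065 genes were higher and 4983 lower, and the same number, 7, of the 10 genes were higher. Low WT reads, at most 5 per liver for Phgdh and 3 to 23 for Psat1, limit the ratios of these genes.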
